A study of Mus musculus with 11 samples.

Results

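The small MAF genes Maff, Mafg and Mafk, the BACH genes Bach1 and Bach2, and Nfe2l2, which encodes NRF2, were followed in splenic B cells whose receptor was cross-linked or left alone. They were chosen on the anti-IgM response of Maff, one of the largest measured, together with the family and dimer partners of Maff. For that reason the anti-IgM differences of the 6 genes are given as values with standard errors, and counts of those past a threshold only describe them. Every probe set that the platform annotation assigns to exactly 1 of these symbols was taken, which gave 11 of the 45101 probe sets on the array and 6 of the 18193 genes measured. Maff and Mafk have 1 probe set each, Mafg, Bach1 and Nfe2l2 have 2 each, and Bach2 has 3.

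RNA came from B cells of female mice aged 6 weeks, of the diabetes-prone strain NOD (NOD/ShiLtJ) or of NR4 (NOD.NOR-Chr4/DvsJ), a NOD congenic strain carrying a chromosome 4 segment of the related strain NOR. In each strain 3 lots of B cells, each from 7 to 8 pooled spleens, were purified by removing other cells with magnetic beads. Culture lasted 2 h, either with goat F(ab')2 fragments against mouse IgM (anti-IgM) at 10 µg/ml or in medium alone. The groups held 2 arrays of NOD cells with anti-IgM, 3 of unstimulated NOD cells, 3 of NR4 cells with anti-IgM and 3 of unstimulated NR4 cells, hybridized to Affymetrix mouse arrays. All values are log2 signals centred on each probe set's median over the 11 arrays. A value of 0 therefore means the middle array of that probe set, and no level can be compared between genes or set against background. A gene with several probe sets is given as their median. In RNA of a whole culture, fewer cells of a type and less RNA per cell cannot be told apart.

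Small MAF proteins are basic leucine zipper factors that have a DNA binding and dimerization region but no activation domain of their own. As partners of NRF2 they bind antioxidant response elements and activate detoxification and redox genes, and as partners of BACH1 or BACH2 they bind the same kind of element and repress. NRF2 protein is kept low by KEAP1 and the CUL3 ubiquitin ligase until the cell meets electrophiles or oxidants. BACH1 represses heme oxygenase until heme displaces it from DNA. BACH2 is the B cell member of the family, where it represses Prdm1, which encodes the plasma cell factor BLIMP1.

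The 3 small MAF genes were all higher after 2 h of anti-IgM, Maff most. Maff, the member whose induction by stimuli is best known, was at 1.75 and 1.32 in NOD cells with anti-IgM, against 0.00, -0.62 and -0.29 in unstimulated NOD cells. In NR4 cells with anti-IgM it was at 1.44, 0.70 and 1.53, against -0.76, -1.15 and -0.28 in unstimulated NR4 cells. All 5 stimulated arrays lay above all 6 unstimulated arrays. The mean difference over both strains was 1.90 log2 units (SE 0.21), or 3.73-fold, and 2 of the 18193 genes had a larger one. Mafk, long known as a subunit of the erythroid factor NF-E2, was at 0.72 and 0.53 in NOD cells with anti-IgM, against 0.00, -0.43 and -0.19 in unstimulated NOD cells. It was at 0.94, 0.22 and 0.54 in NR4 cells with anti-IgM, against -0.20, -0.35 and -0.089 in unstimulated NR4 cells. Its groups did not overlap in either strain, and the mean difference was 0.80 (SE 0.13), or 1.74-fold. Mafg, a widely expressed partner of NRF2, was at 0.70 and 0.31 in NOD cells with anti-IgM, against 0.0045, -0.54 and -0.27 in unstimulated NOD cells. In NR4 cells with anti-IgM it was at 0.64, 0.048 and 0.37, against -0.14, -0.57 and -0.41 in unstimulated NR4 cells. Again no stimulated array fell among the unstimulated ones, and the difference was 0.75 (SE 0.15), or 1.68-fold.

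**Figure D1:**
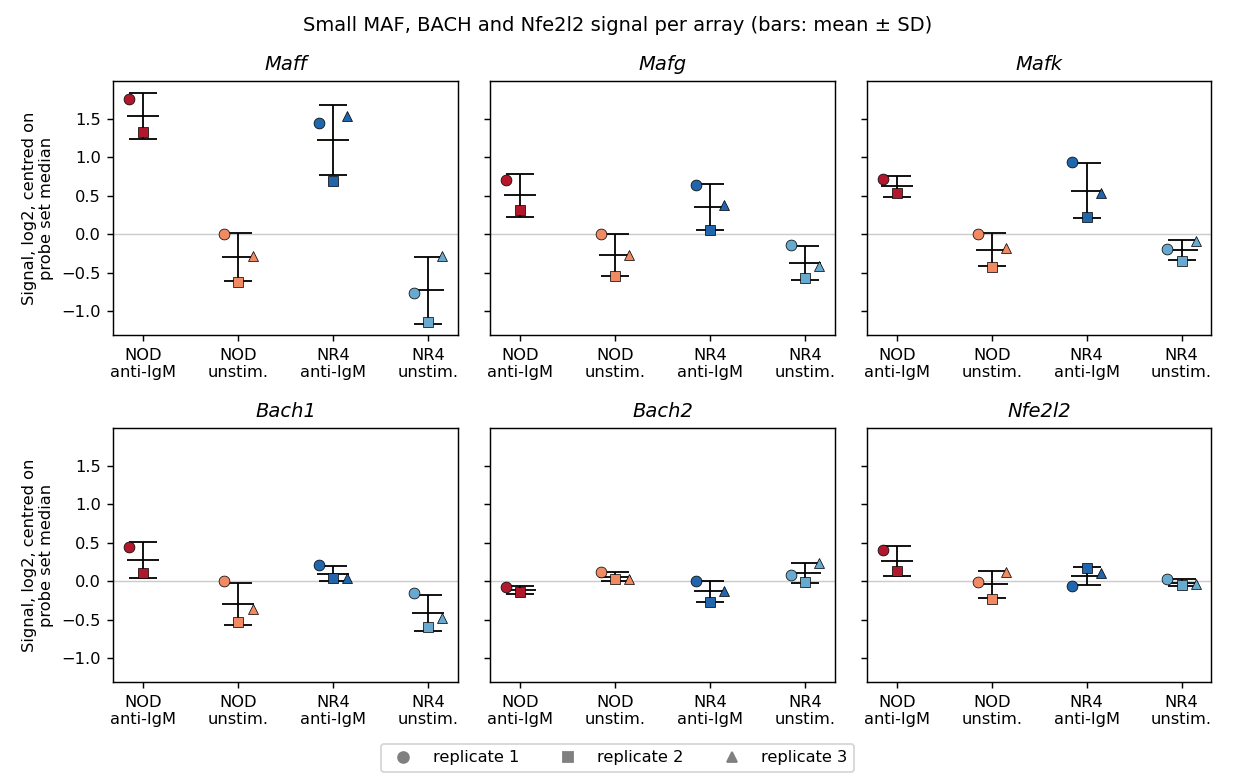
Centred log2 signal (vertical axis) of the 6 genes in each array, by group (horizontal axis). Points are arrays, shaped by replicate number, and bars are group mean ± SD. For Maff, Mafg, Mafk and Bach1 every anti-IgM array lies above every unstimulated array, while the groups of Bach2 and Nfe2l2 overlap in NR4.

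The 5 stimulated arrays lay above the 6 unstimulated arrays for 4 of the 6 genes, namely Maff, Mafg, Mafk and Bach1, where 1.38% of all genes showed this. By limma's adjusted p, 3 of the 6 (Maff, Mafg and Mafk) passed 0.05 in the response averaged over strains, beside 1.56% of all genes, and 0.715% of all genes passed and were higher. Nothing is read from these counts, since this comparison led to the choice of the genes. With the replicate number as a block the count was 4, Bach1 being added. Without NOD unstimulated replicate 2, NOD anti-IgM replicate 1 or NOD anti-IgM replicate 2 it was 1, Maff. The median response of the 6 genes was 0.65, beside 0.0034 for all genes. In NR4 alone Maff passed (0.412% of genes did), and in NOD alone none of the 6 did (0.115% of genes). At an unadjusted p under 0.05 by limma there were 5 of the 6 in each strain. Of all 18193 genes, 1752 were under it in NR4 and 937 in NOD, and nothing is read from these counts either.

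The response was also taken within same-numbered cultures. In NR4, where numbers paired the arrays, Maff was higher with anti-IgM by 2.20, 1.84 and 1.81 log2 units, a mean of 1.95 ± 0.22 (SD, n = 3). Its group SDs there were 0.46 with anti-IgM and 0.44 unstimulated. The corresponding differences of Mafg were 0.78, 0.62 and 0.79, and those of Mafk 1.13, 0.56 and 0.63. In NOD, with 2 same-numbered arrays per condition, Maff was higher by 1.75 and 1.95, Mafg by 0.70 and 0.85 and Mafk by 0.72 and 0.96. The gap between 3' and 5' probe sets of the Gapdh and actin control transcripts, a sign of RNA quality, was on average higher with anti-IgM in both strains. It was 0.21 and 0.13 log2 units in NOD arrays with anti-IgM, against -0.0069, -0.039 and -0.079 unstimulated. In NR4 it was 0.96, 0.042 and 0.23 with anti-IgM, against -0.049, -0.068 and 0.29 unstimulated. The groups were apart in NOD and overlapped in NR4, and the part of this gap in the responses of the members and of the gene lists was not tested. Without NR4 anti-IgM replicate 1, which had the largest gap, the averaged response was 1.84 for Maff, 0.68 for Mafg and 0.71 for Mafk. The Mafk value was its lowest over all arrays left out in turn, and Maff ranged from 1.79 to 2.03. Leaving out this NR4 array does not touch the gap between the NOD groups.

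The stretches around the start sites of the small MAF genes are shown because the 3 genes were higher together. They are RefSeq windows of assembly GRCm38.p6 that run from 250 bases before to 50 after a transcript start, in lower case on the gene's strand. The array files name no build. Capitals mark matches to the core of the antioxidant response element (ARE), TGACNNNGC, or to the cyclic AMP response element, TGACGTCA, on either strand. No window held overlapping matches. Maff has 3 such windows, of which the pair with a match is printed.
Maff, first start, chr15:79346371-79346670, plus strand: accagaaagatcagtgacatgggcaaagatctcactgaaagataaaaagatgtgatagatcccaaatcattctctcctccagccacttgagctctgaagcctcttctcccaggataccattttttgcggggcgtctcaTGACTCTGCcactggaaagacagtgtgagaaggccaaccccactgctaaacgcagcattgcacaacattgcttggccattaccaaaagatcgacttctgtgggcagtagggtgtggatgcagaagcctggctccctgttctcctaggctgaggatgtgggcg
Maff, second start, chr15:79347270-79347569, plus strand: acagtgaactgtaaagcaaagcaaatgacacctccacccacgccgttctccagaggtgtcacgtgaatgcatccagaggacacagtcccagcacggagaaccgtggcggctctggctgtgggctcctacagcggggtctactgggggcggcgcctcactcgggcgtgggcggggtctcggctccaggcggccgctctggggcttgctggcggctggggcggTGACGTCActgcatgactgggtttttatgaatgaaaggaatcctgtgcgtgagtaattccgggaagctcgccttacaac
Mafg, chr11:120633498-120633797, minus strand: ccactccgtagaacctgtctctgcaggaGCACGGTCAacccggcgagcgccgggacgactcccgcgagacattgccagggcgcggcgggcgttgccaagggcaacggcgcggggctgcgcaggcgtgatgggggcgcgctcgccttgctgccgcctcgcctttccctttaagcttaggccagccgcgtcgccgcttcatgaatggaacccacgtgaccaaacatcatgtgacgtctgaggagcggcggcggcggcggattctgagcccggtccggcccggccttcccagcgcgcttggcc
Mafk, chr5:139791286-139791585, plus strand: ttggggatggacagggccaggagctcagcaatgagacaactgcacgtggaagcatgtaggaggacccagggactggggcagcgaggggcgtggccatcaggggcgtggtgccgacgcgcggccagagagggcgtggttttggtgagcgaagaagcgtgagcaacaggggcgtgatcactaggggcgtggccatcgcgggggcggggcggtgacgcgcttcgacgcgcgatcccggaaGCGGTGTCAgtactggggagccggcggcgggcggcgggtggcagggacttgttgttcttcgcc

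The ARE core began 112 bases before the first Maff start, 222 before the Mafg start and 13 before the Mafk start, and it was also found in the Nfe2l2 window. Thus 4 of the 8 windows of the 6 genes held it, where 12.4% of 32851 RefSeq windows of this length did. The cyclic AMP element stood 29 bases before the second Maff start, in 1 of the 8 windows and 1.79% of all. The AP-1 element, TGAGTCA or TGACTCA, was in 0 of the 8 and in 5.2% of all. The single windows of Bach1 and Bach2 held none of these letters. Such matches describe the sequence and do not show that a factor binds there.

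Bach1 was higher with anti-IgM and Bach2 slightly lower. Bach1, the heme-regulated repressor, was at 0.44 and 0.11 in NOD cells with anti-IgM, against -0.0014, -0.53 and -0.36 in unstimulated NOD cells. In NR4 cells with anti-IgM it was at 0.21, 0.038 and 0.041, against -0.15, -0.60 and -0.48 in unstimulated NR4 cells. The groups did not overlap, and the difference averaged 0.54 (SE 0.12), or 1.45-fold. Its probe sets differed in size of response, with 1449311_at higher by 0.77 (SE 0.19) and 1440831_at by 0.30 (SE 0.08). Bach2, the repressor of the plasma cell program, was at -0.076 and -0.15 in NOD cells with anti-IgM, against 0.12, 0.026 and 0.029 in unstimulated NOD cells. In NR4 cells with anti-IgM it was at 0.00, -0.27 and -0.13, against 0.084, -0.0045 and 0.24 in unstimulated NR4 cells. The NOD groups were apart, which 12.0% of genes were in this direction, and the NR4 groups overlapped by a narrow margin. Within same-numbered cultures Bach2 was lower with anti-IgM in each pair, at -0.084, -0.26 and -0.38 in NR4 and at -0.20 and -0.17 in NOD. The averaged difference of Bach2 was -0.21 (SE 0.08), a ratio of 0.867, and 9.66% of genes had a lower one.

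All 3 Bach2 probe sets were lower with anti-IgM in both strains. Averaged over strains, 1445460_at was at -0.34 (SE 0.08), 1436515_at at -0.27 (SE 0.14) and 1437667_a_at at -0.17 (SE 0.07). For 1445460_at the NR4 arrays were at -0.46, -0.27 and -0.21 with anti-IgM, against 0.20, -0.0045 and 0.24 unstimulated. These did not overlap, and how many of all probe sets were apart in this way was not counted. Both Mafg probe sets were higher, 1448916_at by 0.84 (SE 0.19) and 1434054_at by 0.67 (SE 0.14). In a fit over all probe sets, adjusted by Benjamini-Hochberg, 2 of the 11 passed in the averaged response, those of Maff and Mafk, beside 1.01% of the 45037 probe sets that are not controls. Nothing is read from this count either, since the choice used the same comparison.

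**Figure D2:**
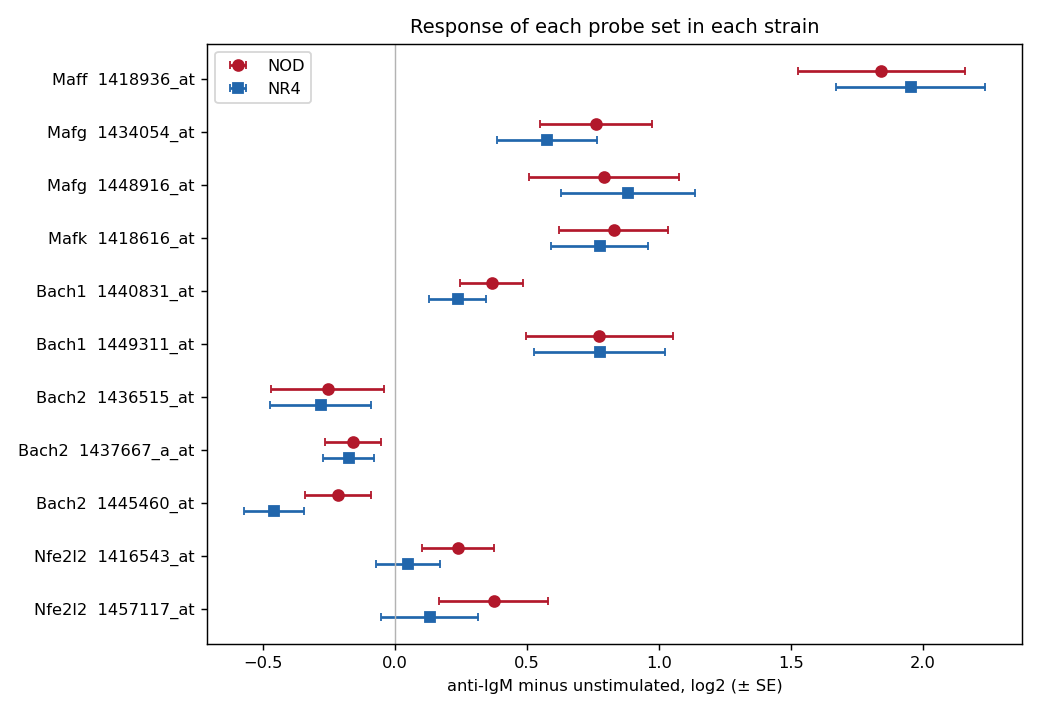
Difference between anti-IgM and unstimulated arrays, in log2 units with its SE (horizontal axis), for each of the 11 probe sets in NOD (circles) and NR4 (squares). All 3 Bach2 probe sets lie below 0 in both strains, and all probe sets of Maff, Mafg, Mafk and Bach1 lie above 0.

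Nfe2l2 had a small averaged difference, close in size to that of Bach2. It was at 0.40 and 0.13 in NOD cells with anti-IgM, against -0.013, -0.23 and 0.12 in unstimulated NOD cells. It was at -0.058, 0.17 and 0.11 in NR4 cells with anti-IgM, against 0.034, -0.051 and -0.033 in unstimulated NR4 cells. The NOD groups were separated by a gap smaller than either SD (8.27% of genes were apart in this direction), the NR4 groups overlapped, and the averaged difference was 0.20 (SE 0.09). Its mRNA says little of NRF2 activity, which is set mainly by protein turnover.

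None of the 6 genes passed limma's adjusted p in the difference between strains, where 0.121% of all genes did. None had an unadjusted p under 0.05 by limma, where 799 of all 18193 genes did. Nothing is read from these counts of 6 genes. Maff had the largest estimate, higher in NOD by 0.37 log2 units (95% interval -0.092 to 0.83, limma adjusted p = 1.0). Its group means were 1.54 in NOD and 1.22 in NR4 with anti-IgM, and -0.30 in NOD and -0.73 in NR4 unstimulated, with overlapping arrays in both conditions. No member was apart by strain in both conditions, where 1.54% of genes were. With the replicate number as a block the Maff difference was 0.43 (limma adjusted p = 0.27). Bach2 was the best bounded, at -0.013 (95% interval -0.18 to 0.16). Mafk was at 0.033 (-0.26 to 0.33), Nfe2l2 at 0.083 (-0.11 to 0.28), Mafg at 0.13 (-0.19 to 0.45) and Bach1 at 0.14 (-0.13 to 0.42). Bach2 is the member on chromosome 4, where NR4 carries NOR sequence. It is gene 91 of the 1095 measured in the order of that chromosome, while the first gene there that differed between the strains, Lrp8, is number 475. Of the 10 nearest measured neighbours of Bach2 0 differed, beside 13 of the 1095. With so few calls this does not show which sequence NR4 carries at Bach2, and that was not tested.

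The size of the response was not shown to differ between NOD and NR4 either. The interaction test of limma called 0 of the 6 genes and 0.0% of all genes, with 0 of the 6 at an unadjusted p under 0.05. Of all 18193 genes, 255 were under it, and nothing is read from these counts. The NOD response minus the NR4 response was -0.11 for Maff, with a 95% interval from -1.03 to 0.81. For Mafg it was 0.047 (-0.60 to 0.70), for Mafk 0.053 (-0.54 to 0.65) and for Bach1 0.064 (-0.48 to 0.61). Bach2 had the narrowest interval, 0.070 (-0.27 to 0.41). Nfe2l2 had the largest estimate, 0.22 (-0.18 to 0.61). The limma adjusted p was 1.0 for each of the 6.

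**Figure D3:**
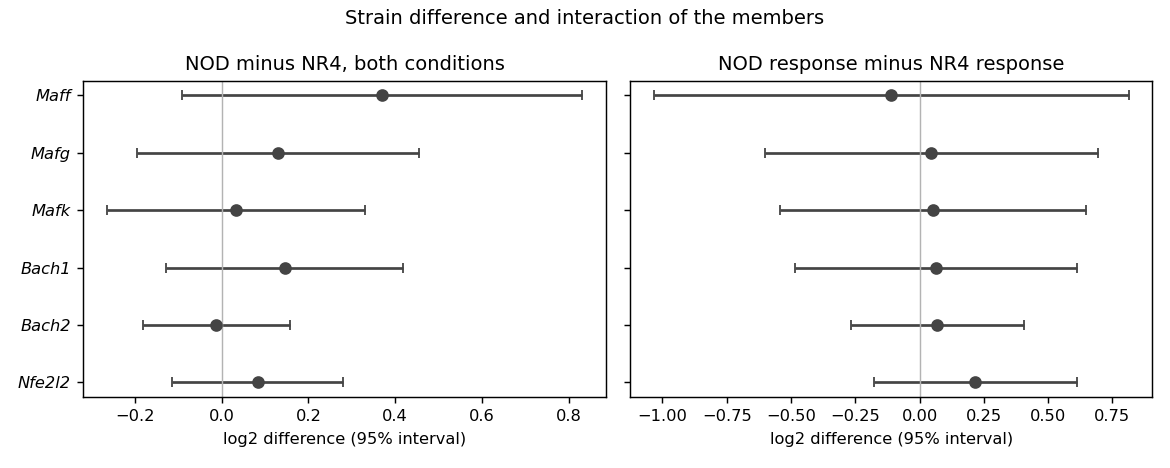
Left, NOD minus NR4 averaged over conditions. Right, the NOD response minus the NR4 response to anti-IgM. Points are log2 differences of the 6 genes and bars are 95% intervals, and every interval includes 0.

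Genes that NRF2 and BACH1 are known to regulate were examined next. All 5 gene lists were chosen with earlier results of these data known, so their counts only describe them. Of 24 measured targets, 2 rose, 0 fell and 22 did not pass in the averaged response (limma, adjusted p below 0.05), with 18 above 0 and a median of 0.13. Of all genes 1.56% passed, 0.715% rose, and the median was 0.0034. Srxn1, which encodes sulfiredoxin, an enzyme that repairs oxidized peroxiredoxins, rose by 1.17 (SE 0.21, limma adjusted p = 0.023). Its arrays were at 1.00 and 0.78 in NOD cells with anti-IgM, against 0.00, -1.09 and -0.19 unstimulated, and at 0.38, 0.21 and 0.61 in NR4 cells with anti-IgM, against -0.16, -0.82 and -0.87 unstimulated. Sqstm1, whose product p62 binds KEAP1, rose by 0.57 (SE 0.09, limma adjusted p = 0.016). Both calls rest on few arrays. Srxn1 missed the threshold without either NOD anti-IgM array, without NR4 unstimulated replicate 2 or 3, or without NR4 anti-IgM replicate 1 or 3 (limma adjusted p up to 0.096), and after quantile normalization (adjusted p = 0.06). Sqstm1 missed it without NOD unstimulated replicate 2 or without either NOD anti-IgM array (adjusted p up to 0.073).

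Hmox1, the heme oxygenase gene that BACH1 represses, had the largest estimate of the targets, 1.65 (SE 0.47), and did not pass (limma adjusted p = 0.14). With the replicate number as a block it was 1.61 (SE 0.20, limma adjusted p = 0.0048). Its arrays were at 1.24 and 0.25 in NOD cells with anti-IgM, against 0.41, -2.02 and -1.16 in unstimulated NOD cells. In NR4 cells with anti-IgM it was at 1.05, 0.00 and 0.61, against -0.039, -1.81 and -1.39 in unstimulated NR4 cells. Within each group the array numbered 1 was the highest and the array numbered 2 the lowest. Over the 11 arrays Hmox1 followed Bach1 with Pearson's r = 0.97, which placed it second of all genes in likeness to Bach1. The deviations of both from their group means correlated at 0.97 as well. The points share group, replicate number and, for both genes, the same RNA.

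**Figure D4:**
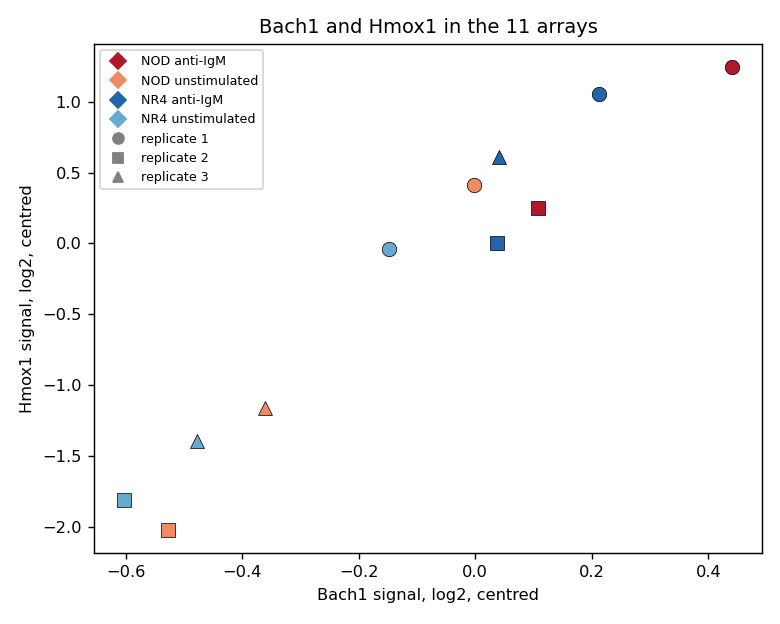
Centred log2 signal of Bach1 (horizontal axis) and Hmox1 (vertical axis) in the 11 arrays, coloured by group and shaped by replicate number. Arrays high in Bach1 are high in Hmox1 (r = 0.97), also among arrays of 1 group.

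Of 12 genes for turnover and nuclear export of NRF2 and BACH1, 0 rose, 1 fell and 11 did not pass, where 1.56% of all genes passed. Xpo1, the main nuclear export receptor, was at -0.26 and -0.30 in NOD cells with anti-IgM, against 0.050, 0.10 and 0.00 unstimulated, and at -0.30, -0.21 and -0.26 in NR4 cells with anti-IgM, against 0.070, 0.013 and 0.016 unstimulated. It fell by 0.31 log2 units (SE 0.06, limma adjusted p = 0.027), with no overlap in either strain. In NOD 12.0% of genes were apart in this direction, and the shares in NR4 and in both strains were not counted. The Xpo1 call was lost when any array other than NR4 anti-IgM replicate 1 or 2 was left out (adjusted p up to 0.14), and with the mean of its probe sets (adjusted p = 0.059). Cul3, the scaffold of the KEAP1 ligase, was at -0.31 (SE 0.10, limma adjusted p = 0.19) and Gsk3b, a kinase that promotes NRF2 degradation, at -0.22 (SE 0.07, limma adjusted p = 0.24). Of 5 measured relatives of the family, 0 passed and 0 had an unadjusted p under 0.05 by limma. They ranged from -0.11 for the large MAF gene Maf to 0.10 for the retinal factor Nrl, with Nfe2l1, which encodes the NRF2 relative NRF1, at 0.069.

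Of 11 genes in the B cell circuit around BACH2, 1 rose, 0 fell and 10 did not pass, where 1.56% of all genes passed. Irf4, required for plasma cell differentiation, was at 0.68 and 0.76 in NOD cells with anti-IgM, against -0.15, -0.014 and -0.22 unstimulated, and at 0.54, 0.56 and 0.71 in NR4 cells with anti-IgM, against -0.20, -0.059 and -0.15 unstimulated. It rose by 0.79 (SE 0.07, limma adjusted p = 0.00064), and its lowest-numbered probe set alone gave 0.30 (adjusted p = 0.071). Cdkn1a, the cell cycle inhibitor p21, was at 0.58 (SE 0.18, limma adjusted p = 0.19; with the replicate number as a block 0.55 and adjusted p = 0.026), and Xbp1, a secretory factor, at 0.17 (SE 0.07, limma adjusted p = 0.40). Of 10 AP-1 genes, whose products bind an element contained in the long MAF recognition element, 4 rose and 0 fell, with a median of 0.35, where 0.715% of all genes rose and the median of all genes was 0.0034. These were Fosb by 1.23 (SE 0.19, limma adjusted p = 0.014), Atf3 by 1.12 (SE 0.10), Fos by 0.56 (SE 0.09) and Fosl2 by 0.52 (SE 0.07). Since the AP-1 list was chosen with earlier results of these data known, nothing is read from its count. Fosb missed the threshold without either NOD anti-IgM array, Fos without NOD anti-IgM replicate 2 and Fosl2 with its lowest-numbered probe set (adjusted p of 0.055 to 0.079). None of the 5 lists had a called gene in the strain difference or the interaction.

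**Figure D5:**
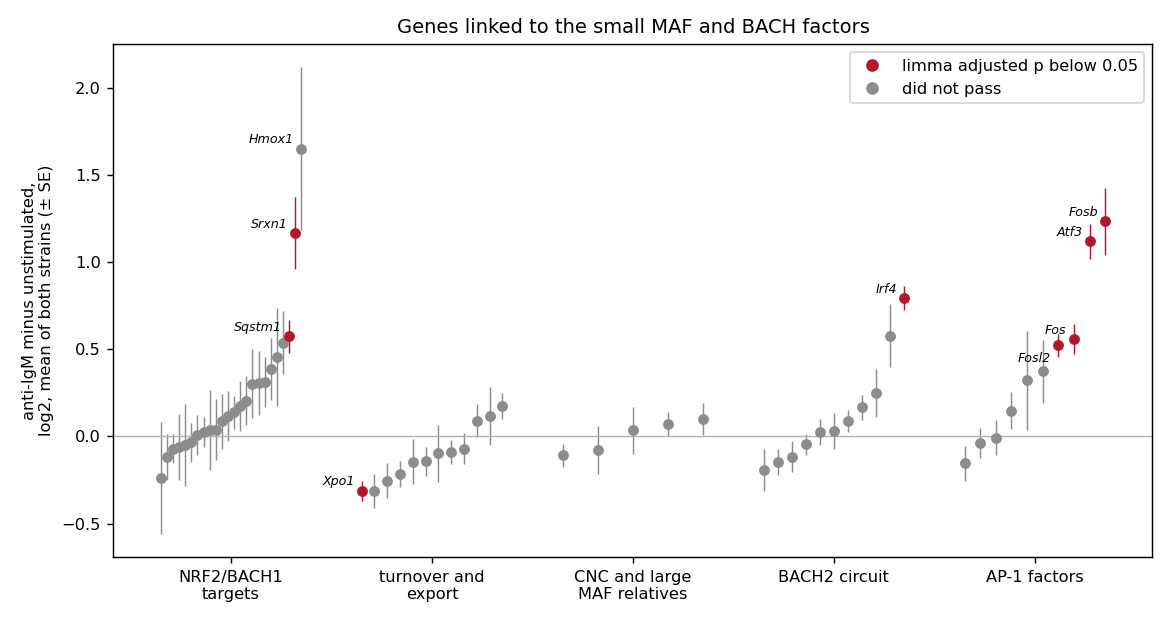
Difference between anti-IgM and unstimulated arrays averaged over strains, in log2 units with its SE (vertical axis), for each measured gene of 5 lists linked to the small MAF and BACH factors (horizontal axis). Red points passed limma's adjusted p of 0.05 and are named, as is Hmox1, which did not pass.

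Among the genes most like each member over the 11 arrays, the small MAF genes lay close to each other. Those nearest to Maff were Rilpl2 (r = 0.99), the transcription factor gene Bhlhe40 (r = 0.98) and Irak2, a kinase gene of Toll-like receptor signalling (r = 0.97), with Mafk in place 12 and Mafg in place 21 of the 18193 genes. Nearest to Mafg were Plekho2 (r = 0.98), the early response gene Ier3 (r = 0.97) and Spsb4 (r = 0.97), with Bach1 in place 5 and Mafk in place 6. Nearest to Mafk were the amino acid transporter subunit gene Slc3a2 (r = 0.98), Irak2 and Mafg (r = 0.97 and 0.96). Bach1 was most like Plekho2 (r = 0.98), Hmox1 and Mafg (r = 0.97 each). Bach2 was most like Heatr6 (r = 0.98), the inhibitory receptor gene Siglecg and the transcription factor gene Ets1 (r = 0.96 each), whose averaged responses were -0.75, -0.70 and -0.58. For Nfe2l2 the nearest were Coil, Arl1 and Bzw1 (r = 0.92, 0.92 and 0.91). All these values come from the arrays that also carry the anti-IgM difference.

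Markers of other cells were followed beside these genes, in lists also chosen with earlier results of these data known. Of 7 B cell markers, 3 (Cd79b, Ms4a1 and Cd22) fell and 0 rose in the averaged response, with a median of -0.51. Of all genes 1.56% passed there, and 153 of the 18193 fell. Their mean per array was -0.41 to -0.046 in NOD cells with anti-IgM, against 0.13 to 0.23 unstimulated, and -0.57 to -0.27 in NR4 cells with anti-IgM, against -0.16 to 0.37 unstimulated. By limma 0 of 8 markers of monocytes and macrophages, 0 of 7 of T cells, 0 of 5 of NK cells, 0 of 5 of neutrophils, 0 of 5 of erythroid cells and 0 of 4 of platelets passed. At an unadjusted p under 0.05 there was 1 of the monocyte and 1 of the T cell list and 0 of the NK cell, neutrophil, erythroid and platelet lists. Of 5 dendritic cell markers Itgax rose, and of 5 plasma cell markers Irf4, which the BACH2 list also holds. Per-array means of the dendritic list were 0.066 to 0.14 in NOD cells with anti-IgM, against -0.076 to 0.034 unstimulated. In NR4 they were 0.051 to 0.18 with anti-IgM, against -0.14 to 0.052. Those of the plasma cell list were apart in both strains. They were -0.028 to 0.098 with anti-IgM against -0.20 to -0.039 in NOD, and 0.13 to 0.22 against -0.032 to 0.058 in NR4. These means include Irf4, at 0.79 the highest averaged response of the 5 plasma cell markers. The median of the 5 was 0.011 and the lowest -0.15, with 3 above 0. Means without Irf4 were not taken. The per-array means of the monocyte list were -0.0062 to 0.15 in NOD cells with anti-IgM, against -0.053 to 0.081 unstimulated, and -0.12 to 0.13 in NR4 cells with anti-IgM, against -0.17 to -0.0053 unstimulated. In the strain difference 0 markers passed limma's adjusted p. At an unadjusted p under 0.05 by limma there were 5 of 7 T cell and 3 of 5 plasma cell markers. Each other list had at most 1, and 799 of all 18193 genes were under it. Centred values do not show whether a marker was present, so the labelled cell type could not be checked, and the part of other cells in these results was not tested.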

How the data were processed

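The authors' deposited table holds log2 signals of 45101 probe sets on 11 arrays. Per the submitters' processing notes RMA was used. Its version is not given in the sources used here. The log base is not stated either, and base 2, on which RMA reports, was assumed. Each of the 45101 has a median of 0 across them, which shows centring per probe set. Levels and detection are therefore unknown, and background correction and a filter on dim probe sets could not be varied. Precision is limited by how many arrays there are.

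Gene names come from the platform annotation. The 34945 with 1 symbol that are not among the 64 controls were joined by their median into 18193 genes. The RefSeq table (GRCm38.p6) held the Entrez identifier of 99.4% of these probe sets, and 0 symbols changed. limma 3.58.1 (R 4.3.3) fitted a mean for each group, which left 7 residual degrees of freedom. Benjamini-Hochberg adjustment ran over all genes in each of 5 two-sided comparisons, with a threshold of 0.05. On simulated data with 200 of 18193 genes changed by 1 log2 unit, 86.5% were recovered for the averaged response, 86.5% for the strain difference and 54.5% for the interaction.

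Replicates are separate lots of pooled spleens, and per the labels' protocols each lot was split between the culture conditions. Deviations of same-numbered arrays correlated at 0.33, 0.22 and 0.47 between NR4 conditions and at 0.59, 0.21 and 0.51 between unstimulated strains, above the limit of 0.1 for pairing. NOD conditions share only 2 numbers (0.63 and 0.12), and stimulated strains gave 0.37 and -0.12, the second below the limit, so pairing is not established where stimulated NOD arrays enter. The block is a term for the replicate number in the same model.

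The members, 5 gene lists and 9 marker lists were chosen with earlier results of these data known. Named genes are the members, list genes past the threshold in any comparison, the 3 of each list with the smallest p in the averaged response, and the 3 genes most correlated with each member. Alternatives were quantile normalization, the lowest-numbered or the mean of a gene's probe sets, the block, each array left out, and, added after seeing the data, single probe sets. Some listed genes are not analysed here.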

Additional observations from a re-analysis of the deposited data

How the results depend on the processing

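Over the 270 responses of the 6 genes under the alternatives other than single probe sets, 0 changed sign and 2 moved by more than 1 SD. Those were Bach1 averaged over strains and in NR4 with its lowest-numbered probe set (0.30 and 0.24). Many of the 270 could not move. Leaving out an array of 1 strain keeps the response of the other strain as it was, and the block keeps the NR4 responses. The mean of probe sets equals the median for genes with 1 or 2, and the lowest-numbered probe set is the only one of Maff and Mafk. The counts of called genes moved more. With the replicate block 558 genes passed in the averaged response (main 283, all of them kept), 229 in NR4 (main 75), 52 in NOD (main 21) and 37 between strains (main 22). After quantile normalization 16 passed in NR4 and 9 in NOD. With each array left out in turn the counts were 76 to 273, 21 to 50, 0 to 25 and 12 to 21 in the same order, the lowest without NOD anti-IgM replicate 2, and without NR4 unstimulated replicate 1 for NR4. A lone NOD anti-IgM array is assumed to vary like the other groups. The interaction called 0 genes in every setting. Small differences turned sign. The Maff interaction was 0.019 with the replicate block and -0.37 to 0.10 with arrays left out, and those of Mafg, Mafk and Bach1 were -0.15 to 0.24, -0.12 to 0.24 and -0.10 to 0.23. The strain difference of Mafk was -0.054 to 0.13 and that of Bach2 -0.046 to 0.021, and 0.0044 with the mean of its probe sets. Single probe sets gave 0.12 for the strain difference of Bach2 (1445460_at), -0.0011 for the interaction of Bach1 (1449311_at) and -0.092 for that of Mafg (1448916_at). None of these passed, and the cause was not tested. In the averaged response the block added calls of Hmox1, Cdkn1a and Bach1. It changed no other call in that response among the members and the named genes of the 5 pathway lists. Calls of these genes in NOD or NR4 alone were not compared under the block. Nor were calls of the genes named for likeness.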

Other observations

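Beyond the anti-IgM difference, the members other than Nfe2l2 moved with the replicate number. In NOD and in NR4, with and without anti-IgM, the array numbered 2 was the lowest of its group for Maff, Mafg, Mafk, Bach1 and Bach2. The same held for Hmox1, and how many of all genes share this order was not counted. Not every single probe set kept it. For Mafg 1434054_at, unstimulated NR4 replicate 3 was at -0.58 and replicate 2 at -0.38. Bach2, which was lower with anti-IgM, deviated from its group means in the same direction as Maff (r = 0.88 over the 11 arrays, beside -0.56 for the undivided values) and as Mafk (r = 0.88). With Mafg and Bach1 the deviations of Bach2 gave r = 0.68 and 0.44. Deviations of Nfe2l2 did not follow those of Mafk (r = -0.0044). They gave 0.19 with Maff, 0.27 with Mafg, 0.41 with Bach1 and -0.16 with Bach2. Such correlations were not set against those of all genes. The arrays numbered 3 have no stimulated NOD member.

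Some textbook partners outside the naming rule were looked up after their values were seen. Prdm1, the gene BACH2 represses, was at 0.25 in the averaged response (SE 0.14, limma adjusted p = 0.61), and Keap1 at 0.12 (SE 0.17, limma adjusted p = 0.93). Gclm, a glutathione synthesis gene, was at 0.45 (SE 0.28, limma adjusted p = 0.67). Nqo1, a quinone reductase and NRF2 target, was at 0.68 in NOD (SE 0.21) and at -0.058 in NR4 (SE 0.19), with an unadjusted p = 0.027 and a limma adjusted p = 1.0 for the interaction. Its arrays were at 0.51 and 0.64 in NOD cells with anti-IgM, against 0.092, -0.32 and -0.077 unstimulated. In NR4 they were at 0.44, -0.0036 and -0.37 with anti-IgM, against 0.24, 0.00 and 0.00 unstimulated.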
